A study of Mus musculus with 6 samples.

Results

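The germ cell and meiosis genes described here are 52 mouse genes listed as normally limited to germ cells. They were taken from a fixed list of symbols, chosen with earlier results of these data known, and each was matched to 1 Ensembl identifier. All 52 were found among the 48795 identifiers of the hippocampal count table, whatever their counts. Some of them, among these Ddx25, Tdrkh and Brdt, also had reads in every wild-type library. The samples were polyadenylated RNA from the hippocampus of tamoxifen-treated mice on a C57BL/6J background, with 3 libraries per group. The double knockout (KO, labelled ifKO) carried floxed alleles of Kdm1a and Kdm5c and CamKIIα-CreERT2, a recombinase that tamoxifen activates and that is made in principal neurons of the forebrain. It therefore removed exons of these histone H3 lysine 4 demethylase genes in those neurons from 2 to 3 months of age on, and the hippocampus also holds cell types that this driver does not target. The controls were labelled wild type (WT) and also received tamoxifen, and the labels do not say whether they carried the recombinase. They are also silent on whether each library was a different animal, and the p-values therefore reflect only how these libraries varied. The comparison asks which germ cell transcripts differ in hippocampal RNA once both demethylases are removed from these neurons.

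Germ cells keep a set of genes that other tissues hold silent. Some of these genes protect the germline genome through the piRNA pathway, in which small RNAs bound by PIWI proteins silence transposons with the help of Tudor domain proteins in germ granules. Others carry out meiosis, in which homologous chromosomes pair along the synaptonemal complex, are held by meiotic cohesin and recombine. Many germ cell promoters are CpG-rich, and in somatic cells DNA methylation and the E2F6 and MGA repressor complexes keep them off. Loss of KDM5C from the whole animal has been linked to germ cell transcripts in the mouse brain.

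Most of the 52 genes were silent or nearly so in both groups, 4 rose in the KO and 0 fell. The 4 were Zar1, Boll, Tdrd6 and Meioc. Over all 6 libraries 11 members had 0 counts, 9 had 1 to 9, 17 had 10 to 99 and 15 had at least 100, from library totals of 19309576 to 19700249 counts. Of the 17 members that passed the filter on low counts, the 4 rises compare with 5.90% of 16861 tested genes that rose, 1.05% that fell and 6.95% that did either. Here "rose" and "fell" mean a Benjamini-Hochberg adjusted p under 0.05 over all tested genes in the edgeR quasi-likelihood test. By that test 0 of the 17 fell, also at an unadjusted p under 0.05, and 0 fell with DESeq2 or limma-voom. A member that is silent in WT passes the filter only if it is high in the KO, so the 17 favour rises. Without the filter, 41 members had at least 1 count, and 4 rose and 0 fell, against 4.05% and 0.969% of 28783 genes. Because the members were chosen with earlier results of these data known, these shares describe the list and are no separate evidence.

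Summed counts place the 4 genes among the other members, leaving out the 3 most abundant ones (Ddx25, Tdrkh and Brdt). Summed over the other 49 members, the libraries held 502, 463 and 534 counts in WT and 738, 706 and 692 in KO. The 4 genes that rose gave 36, 31 and 33 of these counts in WT and 235, 280 and 206 in KO. The remaining 45 members gave 466, 432 and 501 counts in WT and 503, 426 and 486 in KO. The genes were divided here by the test itself, so the sums describe how many counts lie on each side and are no separate evidence. The 45 include Tdrd1 and Mael, which also had every KO library above every WT library.

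Among the regulators of germ cell identity and germline RNA, the oocyte gene Zar1 and the meiotic gene Boll rose and the germ cell helicase genes did not. ZAR1 binds and stores maternal mRNA in oocytes. Zar1 (ENSMUSG00000063935, GRCm38 chromosome 5, 72576806 to 72581254, minus strand) had 3, 0 and 1 counts in WT and 80, 86 and 72 in KO. Every KO library thus stood far above every WT library, and the KO values lay close together. In counts per 1000000 (CPM, scaled with TMM) this was 0.0683 ± 0.0777 in WT and 4.05 ± 0.390 in KO (mean ± SD, n = 3 each). The log2 fold change was 5.75 (SE 0.398, 95% interval 4.90 to 6.61, adjusted p = 4.32e-07, edgeR quasi-likelihood test). It rests on 4 WT counts, and was 6.96 without WT replicate 1 and 5.21 without WT replicate 2. By the sums alone the ratio of counts per library size was 59.6 (exact binomial 95% interval 23.0 to 220, counting error only). Of the 50-base windows in Zar1 transcripts, 28.4% also occur in transcripts of other genes, chiefly the predicted gene Gm42668 (20.8%), which itself had 0, 1 and 0 counts in WT and 1, 2 and 1 in KO.

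BOLL is an RNA-binding protein of the DAZ family that is needed for sperm development. Boll (ENSMUSG00000025977, chromosome 1, 55248658 to 55363469, minus strand) had 0, 2 and 0 counts in WT and 28, 53 and 20 in KO. The lowest KO library held 10 times the counts of the highest WT library, but the KO libraries themselves ranged more widely than those of Zar1. The level was 0.0348 ± 0.0602 CPM in WT and 1.72 ± 0.895 CPM in KO, and the adjusted p was 2.37e-04 in edgeR's quasi-likelihood test. With 2 WT counts the size of the rise is best given as the ratio of counts per library size, 50.5 (95% counting interval 13.6 to 423). The fitted log2 fold change, 5.40, was 8.07 without WT replicate 2, which held both WT counts, and 4.88 without WT replicate 1.

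The promoters of Boll and Meioc are shown because both genes rose and because the first holds the letters CACGTG, an E-box that MGA with its partner MAX can bind, and the second GCGGGA, a core of E2F sites. Sequences are from RefSeq on GRCm38.p6, 5′ to 3′ on the strand of the gene, and cover the 250 bases before a RefSeq start, with the searched letters in capitals. The Boll stretch lies at chr1:55363754-55364003 on the minus strand, and its CACGTG begins 9 bases before the start. This stretch lies outside the GENCODE span of Boll, which ends at 55363469. Mars2, on the plus strand, begins 188 bases from that span. Another RefSeq start of Boll lies inside the span, and its window holds no CACGTG. The Meioc stretch lies at chr11:102665335-102665584 on the plus strand, inside the longer GENCODE gene span, and its GCGGGA begins 228 bases before the start.
Boll: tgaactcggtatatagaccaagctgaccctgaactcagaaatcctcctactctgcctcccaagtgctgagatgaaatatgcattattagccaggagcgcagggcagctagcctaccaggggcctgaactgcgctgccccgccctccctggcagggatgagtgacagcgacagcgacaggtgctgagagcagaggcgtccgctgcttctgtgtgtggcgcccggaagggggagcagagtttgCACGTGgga
Meioc: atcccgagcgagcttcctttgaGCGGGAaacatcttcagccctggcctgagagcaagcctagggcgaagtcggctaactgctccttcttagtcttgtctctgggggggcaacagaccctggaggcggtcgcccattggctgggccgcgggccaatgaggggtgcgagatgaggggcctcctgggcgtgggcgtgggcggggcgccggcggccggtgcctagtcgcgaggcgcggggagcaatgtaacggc

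None of the other regulators of this group passed the test. DAZL, a DAZ family relative of BOLL, and DDX4, the VASA helicase that marks germ cells, are standard markers of the germline. Dazl had 73, 62 and 74 counts in WT and 78, 66 and 76 in KO, a log2 fold change of 0.06 (95% interval -0.28 to 0.39). Ddx4 had 110, 93 and 137 counts in WT and 87, 94 and 91 in KO, so its KO levels of 4.43 to 4.84 CPM lay just below the WT levels of 4.85 to 7.12 CPM (-0.34, 95% interval -0.68 to 0.00146, adjusted p = 0.250 in edgeR's quasi-likelihood test). The testis helicase gene Ddx25 was the member with the most counts, 962, 1007 and 1003 in WT and 1003, 963 and 952 in KO (-0.05, 95% interval -0.18 to 0.0894). Nanos3, which protects primordial germ cells, had 23 counts in WT and 24 in KO. Pramel1 had 2 and 0, and the pluripotency genes Dppa4 and Zfp42 had 0 in every library.

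**Figure D1:**
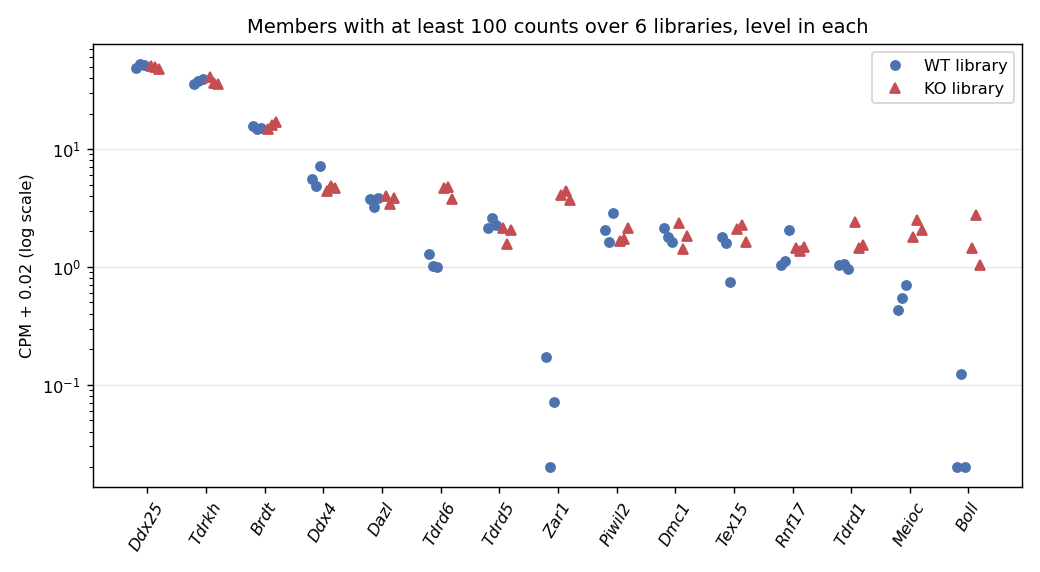
Level in each library of the 15 members with at least 100 counts summed over all 6 libraries, as CPM plus 0.02 on a log scale, with WT libraries as blue circles and KO libraries as red triangles and genes ordered by mean level. The KO triangles stand apart from the WT circles for Zar1, Boll, Meioc and Tdrd6, stand just above them for Tdrd1, stand just below them for Ddx4 and mix with them for the rest.

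In the piRNA pathway and germ granule, 7 of 12 members were tested, and Tdrd6 rose and 0 fell. TDRD6 is a multi-Tudor protein of the chromatoid body, the RNA granule of spermatids. Tdrd6 (ENSMUSG00000040140, chromosome 17, 43615335 to 43630299, minus strand) had 25, 19 and 19 counts in WT and 92, 93 and 74 in KO. The groups did not overlap, and unlike Zar1 and Boll the gene already had reads in every WT library. Its level went from 1.08 ± 0.164 to 4.41 ± 0.572 CPM, a log2 fold change of 2.02 (SE 0.203, 95% interval 1.58 to 2.45, adjusted p = 1.54e-05, edgeR quasi-likelihood test).

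Tdrd1, a Tudor partner of the PIWI proteins, was the member nearest to the threshold without passing it. It had 20, 20 and 18 counts in WT and 47, 28 and 30 in KO. The groups did not overlap, but the first KO library stood well above the other two. The log2 fold change was 0.83 (SE 0.266, adjusted p = 0.0848 in edgeR's quasi-likelihood test), and over the alternatives that were run the adjusted p ranged from 0.0639 to 0.710. In all, 5 of the 17 tested members had every KO library above every WT library, as did 14.0% of all tested genes, and 1, Ddx4, had every KO library below, as did 11.2%.

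The other piRNA genes with reads did not pass. Tdrkh, whose product holds PIWI proteins at mitochondria, had 704, 721 and 751 counts in WT and 807, 711 and 701 in KO (log2 fold change 0.01, 95% interval -0.15 to 0.17). Of the Tdrkh exon bases, 36.7% overlap exons of Oaz3 on the opposite strand, which had 59 counts in WT and 56 in KO. Reads there could have been lost or credited to the other gene, depending on the counting settings. Piwil2, a PIWI protein itself, had 40, 31 and 55 counts in WT and 32, 33 and 42 in KO (-0.25, 95% interval -0.77 to 0.26).

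The Tudor gene Tdrd5 had 42, 49 and 43 counts in WT and 42, 30 and 40 in KO, and Rnf17, a germ granule gene, had 20, 21 and 39 in WT and 28, 26 and 29 in KO. Tex15, which acts in transposon silencing and meiotic repair, had 35, 30 and 14 in WT and 41, 44 and 32 in KO (0.55, 95% interval -0.07 to 1.17). All of these overlapped between the groups. Below the filter, Tdrd9 had 16 counts in WT and 14 in KO, Stk31 had 3 and 11, Mov10l1 had 3 and 0, and Asz1 had 0 in every library. Mael, a piRNA factor that also sits in germ granules, had 0, 0 and 1 counts in WT and 2, 2 and 10 in KO, a ratio of 14.0 (95% counting interval 2.13 to 593). Its adjusted p without the filter was 0.0847 (edgeR quasi-likelihood test), and 10 of its 14 KO counts came from 1 library.

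Of the regulators of meiotic entry only Meioc had enough counts to be tested, and it rose. MEIOC works with the helicase YTHDC2 to keep germ cells in meiotic prophase. Meioc (ENSMUSG00000051455, chromosome 11, 102663716 to 102682237, plus strand) had 8, 10 and 13 counts in WT and 35, 48 and 40 in KO, and the groups did not overlap. It went from 0.535 ± 0.135 to 2.09 ± 0.349 CPM (log2 fold change 1.96, SE 0.279, 95% interval 1.36 to 2.56, adjusted p = 4.15e-04, edgeR quasi-likelihood test). Stra8, the retinoic acid target that starts meiosis, had 0 counts in every library. The sex determination factor gene Dmrt1 had 1 count in WT and 0 in KO, and its relative Dmrtb1 had 9 and 12.

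**Figure D2:**
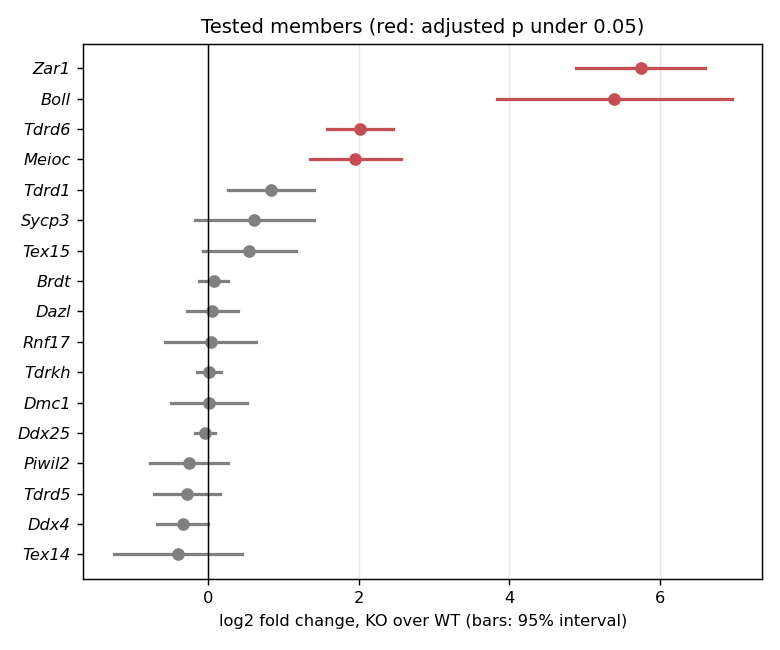
Log2 fold change of KO over WT for the 17 tested members, with bars for the 95% interval and red for an adjusted p under 0.05 in edgeR's quasi-likelihood test. Zar1 (5.75), Boll (5.40), Tdrd6 (2.02) and Meioc (1.96) lie to the right of 0, and the interval of Tdrd1 (0.26 to 1.41) excludes 0 although its adjusted p missed the threshold.

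The structural genes of meiosis had few counts in both groups. Of 10 genes of the synaptonemal complex, cohesin and recombination, 2 could be tested, and 0 rose or fell, also at an unadjusted p under 0.05 and with DESeq2 or limma-voom. Dmc1, the recombinase that pairs homologous DNA strands, had 42, 34 and 31 counts in WT and 46, 27 and 36 in KO (log2 fold change 0.01, 95% interval -0.50 to 0.52). Sycp3, of the lateral element, had 10, 8 and 16 in WT and 25, 13 and 15 in KO (0.62, 95% interval -0.18 to 1.41). Exons of Chpt1 on the opposite strand overlap 52.2% of the Sycp3 exon bases, and Chpt1 had 2330 counts in WT and 2287 in KO. Depending on the counting settings, reads in this overlap could have been lost or credited to the other gene.

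The remaining meiotic genes had too few counts for the test and are given by their sums. Spo11, which makes the DNA breaks of meiosis, had 8 counts in WT and 21 in KO (2, 0 and 6 against 7, 4 and 10, which overlap). Syce1 of the central element had 11 and 20, and Hormad2, of the chromosome axis, had 6 and 4. Hsf2bp had 22 in WT and 7 in KO, 13 of the 22 in 1 library. Tex11, on the X chromosome, had 23 and 13, and the cohesin gene Smc1b had 16 and 10. Sycp1, of the transverse filament, and Hormad1 had 0 counts in all libraries.

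None of the testis copies of housekeeping genes could be tested. These genes, several of them retrocopies of X-linked genes, stand in for their somatic counterparts in spermatogenic cells. All 12 lay below the filter, and 3 of them (Cyct, Ldhc and Rpl10l) had 0 counts in all libraries. D1Pas1, the copy of Ddx3x, had 3 counts in WT and 2 in KO, Pdha2 had 1 and 0, Rpl39l had 0 and 3, and Naa11 had 5 and 10. Slc25a31 had 11 and 3, Tktl2 had 16 and 16, and Taf7l, on the X chromosome, had 18 and 28. Tuba3a had 3 and 1 and Tuba3b had 1 and 0, but these 2 genes share 32.4% of the 50-base windows of Tuba3a and 27.4% of those of Tuba3b, so reads from either could have been lost or split in counting.

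Per kilobase of exon, the counterparts were far more abundant than the copies in both groups, and none passed the test. Slc25a4 was at 231 CPM per kb in WT and 224 in KO, against 0.0896 and 0.0240 for its testis copy Slc25a31. Taf7, the least abundant counterpart, was at 2.48 and 2.26 CPM per kb, against 0.138 and 0.212 for Taf7l, the most abundant copy. Of 15 somatic counterparts tested, 0 rose or fell by edgeR's quasi-likelihood test, also at an unadjusted p under 0.05 and with DESeq2 or limma-voom. The smallest p-values belonged to Cycs (log2 fold change -0.16), the counterpart of Cyct, and to the cohesin gene Smc1a (-0.0813).

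**Figure D3:**
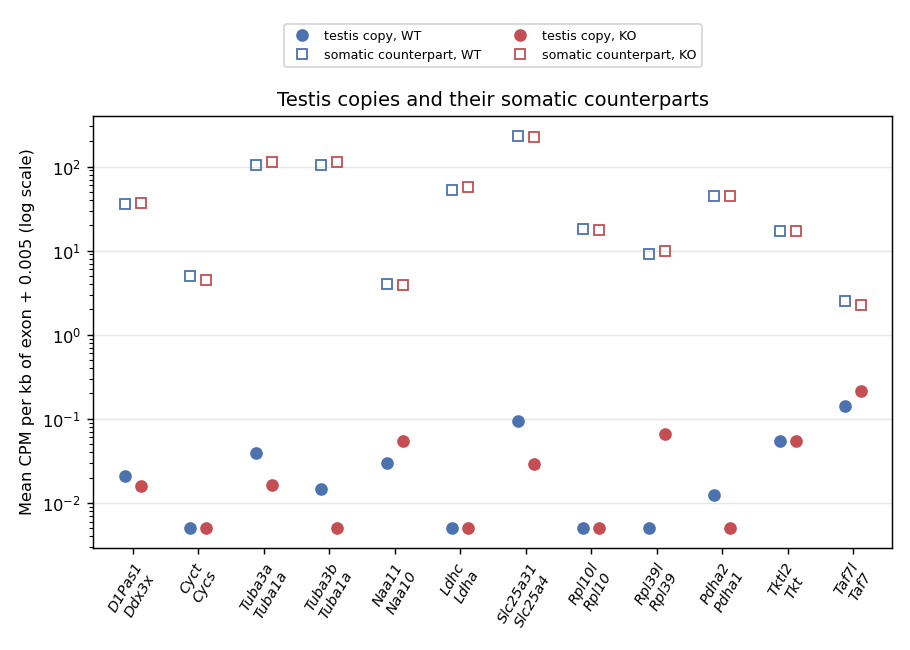
Mean level per kilobase of exon (CPM per kb plus 0.005, log scale) of the 12 testis copies (filled circles) and of their somatic counterparts (open squares) in WT (blue) and KO (red). Every copy lies below its counterpart in both groups, and circles at the bottom are genes with 0 counts.

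Among the other testis genes, Brdt, a bromodomain protein that compacts chromatin in spermatids, had 305, 282 and 288 counts in WT and 290, 308 and 334 in KO (log2 fold change 0.07, 95% interval -0.12 to 0.27). Tex14, of the bridges between germ cells, had 11, 11 and 8 in WT and 6, 6 and 11 in KO (-0.40, 95% interval -1.25 to 0.45). Both overlapped between the groups. Dpep3 had 0 counts in WT and 1 in KO, and Tex101 and Usp26 had 0 in every library. For the 11 members with 0 counts, 3 counts over the KO libraries set the limit that such a count allows, 0.0514 CPM. Below that level a rise was not detectable at this depth, and a rise above it could still miss the test. Mael, at 0.0173 CPM in WT and 0.237 in KO, was not called without the filter (adjusted p = 0.0847, edgeR quasi-likelihood test). In whole hippocampus, fewer cells that express a gene and less RNA per cell cannot be told apart.

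Per kilobase of exon, Ddx25 was the most abundant member in WT at 7.39 ± 0.281 CPM per kb, followed by Tdrkh at 6.11 ± 0.261, Brdt at 2.95 ± 0.0815 and Ddx4 at 1.94 ± 0.384. In KO the order was Ddx25 (7.16 ± 0.205), Tdrkh (6.14 ± 0.482), Brdt (3.10 ± 0.211), Ddx4 (1.54 ± 0.0678), Zar1 (1.17 ± 0.113) and Dazl (0.979 ± 0.0793). The level of Zar1 in KO tissue thus came to lie between those of Ddx4 and Dazl, which the WT hippocampus also held. None of these 6 genes overlapped its neighbour in that order over the 3 KO libraries.

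A count rule that needs no filter gave the silent members a background. It asks, of genes with under 10 counts over the WT libraries, how many have at least 10 over the KO libraries with every KO library above every WT library. Of 28 such members 3 met it (10.7%): Zar1, Boll and Mael. Of all 29654 such identifiers 0.718% met it, and of the 6426 that code for protein 1.95% did. As the members were chosen with earlier results of these data known, their share is no separate evidence. The number of members was 6 of 32 without WT replicate 2, when Stk31, Taf7l and Dmrtb1 joined, and 5 of 31 without WT replicate 3, when Spo11 and Syce1 joined. The limit of 10 counts then covered fewer WT libraries, and 1.27% of all such identifiers met the rule in either case. Without KO replicate 3 the number was 2 of 28, when Mael was lost, against 0.647% of all such identifiers.

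Other genes of the germ cell and meiotic programme, from another list of 74 of which 73 were in the table, included 5 that rose. This list was chosen with earlier results of these data known, so its shares describe the list and are no separate evidence. Of 29 tested, 5 rose (17.2%, against 5.90% of all tested genes) and 0 fell (0 also with DESeq2 or limma-voom, 2 at an unadjusted p under 0.05), and their median log2 fold change was 0.19 against -0.01 over all tested genes. Here too a gene silent in WT is tested only if it is high in the KO. Without the filter 5 of the 58 with any count rose, against 4.05% of all genes. Tcfl5, a transcription factor of spermatocytes, had 6, 1 and 0 counts in WT and 201, 225 and 216 in KO (log2 fold change 6.43, or 8.39 without WT replicate 1, adjusted p = 2.65e-08, edgeR quasi-likelihood test). Of 40 genes of this list with under 10 WT counts, Tcfl5 and the acrosome gene Spaca1 (0, 1 and 0 counts against 4, 4 and 5) met the count rule. That is 5%, against 0.718% of all such identifiers and 1.95% of those that code for protein. Rbm46, an RNA-binding partner of MEIOC and YTHDC2, had 6, 6 and 11 counts in WT and 34, 41 and 51 in KO (log2 fold change 2.42, SE 0.313, adjusted p = 1.77e-04, edgeR quasi-likelihood test). Ythdc2 itself had 2258 and 1950 counts (-0.23, adjusted p = 0.155 in the same edgeR test).

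The other 3 rises were in meiotic chromosome genes. The cohesin genes Rad21l (10, 10 and 15 counts against 30, 30 and 26, log2 fold change 1.27) and Stag3 (32, 38 and 49 against 78, 70 and 60, log2 fold change 0.78) rose, and so did Mei1 (40, 30 and 15 against 70, 47 and 58, log2 fold change 1.02), which is needed for meiotic breaks. Each of the 3 lost its call without at least 1 library. In edgeR's quasi-likelihood test the adjusted p was 0.0604 and 0.0552 for Rad21l without WT replicate 1 and 2. For Stag3 it was 0.120 and 0.0893 on leaving out the first or the second WT library, and 0.125 and 0.0867 on leaving out the first or the second KO library. For Mei1 it was 0.0909 and 0.0882 on leaving out the second or the third WT library, and 0.157 and 0.123 on leaving out the first or the third KO library. DESeq2 ended the calls of Rad21l and Stag3 (adjusted p = 0.0535 and 0.0585), and edgeR with a replicate block that of Stag3 (0.0513). Synaptonemal genes of this list, Sycp2 (130 and 130 counts) and Syce2 (365 and 485, adjusted p = 0.0934 in edgeR), did not pass.

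Known repressors of germ cell genes in somatic cells were expressed in both groups. Kdm1a fell from 73.6 ± 3.94 to 38.5 ± 1.28 CPM (log2 fold change -0.93, adjusted p = 4.32e-07, edgeR quasi-likelihood test), and Kdm5c, at 79.4 ± 2.97 and 70.5 ± 4.67 CPM, did not pass (adjusted p = 0.143 in the same edgeR test). These counts are over all exons of each gene and also take in reads from outside the deleted exons. Of 29 repressors tested, 2 rose (6.90%, near the 5.90% of all tested genes that rose). They were Hdac1 (10.2 ± 0.490 to 14.8 ± 0.193 CPM) and Rcor2 (13.3 ± 1.30 to 20.9 ± 0.0229 CPM). Only Kdm1a fell, and 1.05% of all tested genes did. E2f6 had 1895 counts in WT and 1881 in KO, Mga 3795 and 4235, Pcgf6 1362 and 1294 and Dnmt1 3746 and 3406, and none of these passed.

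The promoter sequences of the members held the searched letters more often than promoters in general, whether or not the gene rose. RefSeq windows of 250 bases before to 50 after a start (GRCm38.p6) were at hand for 44 of the 52 members, with 51 windows in all. CACGTG, which reads the same on both strands, was in 33.3% of member windows and in 7.15% of all 32851 windows (7.84% of those of protein-coding genes). GCGGGA or its reverse TCCCGC was in 43.1% of member windows, 20% of all windows and 25.8% of those of protein-coding genes. The median ratio of observed to expected CpG was 0.700 in member windows, 0.384 in all windows and 0.567 in those of protein-coding genes.

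Of 14 members whose windows hold CACGTG, Boll rose and 13 did not pass or could not be tested. GCGGGA or TCCCGC was in a window of Zar1, Boll and Meioc, the 3 risen members with a promoter window at hand, and Tdrd6 had no window. Either was in a window of 18 of the 41 other members (43.9%). Counted the same way per gene, the share was 22% of all genes with a window and 28.4% of protein-coding ones. Sites with 10 bases on either side are shown, with the searched letters in capitals, for Boll and Zar1, which rose, for Ddx4, Tdrd1 and Brdt, which had reads in both groups without passing, and for Sycp1 and Hormad1, which had 0 counts. In Zar1 the letters are GCGGGA and begin at base 15 after the start. The other sites begin before a RefSeq start, by 9 bases in Boll, 29 in Ddx4, 11 in Tdrd1, 78 in Brdt, 94 in Sycp1 and 20 in Hormad1. The stretches lie at chr1:55363747-55363772 (Boll, minus strand), chr5:72581055-72581080 (Zar1, minus), chr13:112652324-112652349 (Ddx4, minus) and chr19:56826188-56826213 (Tdrd1, plus). Those of Brdt, Sycp1 and Hormad1 lie at chr5:107331106-107331131 (plus), chr3:102936179-102936204 (minus) and chr3:95559647-95559672 (plus). Where a gene has several starts or sites, 1 is shown.
Boll: gcagagtttgCACGTGggaacttgtc
Zar1: cgggcgaggcGCGGGAcgcacccatg
Ddx4: cgtccgcccgCACGTGcagccgttta
Tdrd1: gggctgcgcgCACGTGggagtaaact
Brdt: caggcacagtCACGTGgcagaccctg
Sycp1: gagaacccggCACGTGggaagggaaa
Hormad1: gcgcactgcgCACGTGctgaccggag
These letters were thus present near the starts of genes that rose, genes that did not pass and genes with 0 counts. A match describes the sequence and does not show binding.

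None of the genes beside the 4 that rose passed the test. Of 17 tested genes within 100000 bases of Zar1, Boll, Tdrd6 or Meioc, 0 rose or fell by edgeR's quasi-likelihood test, 2 rose and 2 fell at an unadjusted p under 0.05, and 0 passed with DESeq2 or limma-voom. With 5.90% of all tested genes rising, 17 genes are too few to tell 0 from that share. The pseudogene Gm8292, which lies within the span of Boll, had a log2 fold change of 0.032. Mars2 at 188 bases from Boll and Ccdc43 at 2449 bases from Meioc, the nearest protein-coding genes, had -0.25 and 0.13. Near all 52 members, 10 of 187 tested neighbours rose (5.35%, against 5.90% of all tested genes) and 3 fell. The members lay on 19 chromosomes, at most 5 on any one.

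Markers of other tissues and cells were read in the same libraries. Of 20 sperm and spermatid transcripts, 5 had 0 counts in all libraries, Tnp1 and Smcp among them. Prm1 had 6 counts in WT and 11 in KO, Prm2 had 0 and 1, and Tnp2 had 0 and 1. Of 6 tested, Hspa2, a heat shock gene that other tissues also express, rose (63.9 ± 5.93 to 110 ± 3.85 CPM). Among these 6, 3 had every KO library above every WT library, as did 14.0% of all tested genes. In 0 of them was every KO library below every WT library, against 11.2% of all tested genes. Their median log2 fold change was 0.30, against -0.01 over all tested genes. The summed list, which takes in Hspa2, ranged from 188 to 195 CPM in WT and from 229 to 245 in KO. Most of that difference was the rise of Hspa2. Of 14 genes of testis somatic cells 0 of 5 tested rose or fell (0 also with DESeq2 or limma-voom, 2 rose at an unadjusted p under 0.05), and their sum was 117 to 130 CPM in WT and 128 to 141 in KO. The smallest p-values there belonged to Aard (log2 fold change 0.55) and Cldn11 (0.17), the latter also a myelin gene.

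Brain cells at the edge of the dissection were read the same way. Over all tested genes, 5.90% rose and 1.05% fell, and the counts of genes below are to be read beside these shares. Ependymal and motile cilium genes summed to 42.2 to 54.0 CPM in WT and 51.7 to 58.6 in KO, and of 15 tested Rsph4a and Hydin rose. Hydin lost its call with DESeq2 (adjusted p = 0.0594) and on leaving out any library but the first WT one (edgeR adjusted p = 0.0513 to 0.119). Rsph4a lost it on leaving out the third WT, the second KO or the third KO library (edgeR adjusted p = 0.0526, 0.0599 and 0.0961). Choroid plexus genes summed to 52.9, 37.5 and 38.0 CPM in WT and 134, 65.6 and 133 CPM in KO, so every KO library stood above every WT library. Of 9 tested, with a median log2 fold change of 0.66, Kl rose, 3 rose at an unadjusted p under 0.05, and without the filter 3 rose (Kl, Ttr and F5). The part of these cells in the result was not tested. Principal neuron markers summed to 7074 to 7558 CPM in WT and 6644 to 7300 in KO, and of 12 tested Pou3f1 rose (log2 fold change 0.28) and Neurod6 fell (-0.34). Pou3f1 lost its call with limma-voom (adjusted p = 0.0543), with a replicate block (edgeR adjusted p = 0.0611) and on leaving out any library but the first KO one (0.0512 to 0.239). The choroid plexus transcript Ttr had 374, 114 and 139 counts in WT and 1155, 31 and 1103 in KO, so the second KO library held the least of it. Without Ttr the list had 665, 604 and 592 counts in WT and 1477, 1244 and 1520 in KO, and without Ttr and Kl it had 214, 174 and 200 in WT and 303, 175 and 302 in KO. The second KO library thus stood above WT in the list sum, mostly through Kl. A comparison of that KO library alone against WT was added after the data were seen. Its log2 fold changes were 5.88 for Zar1, 6.06 for Boll, 2.13 for Tdrd6 and 2.19 for Meioc. That library is 1 of the 3 KO libraries behind the calls, so these values are no separate evidence.

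**Figure D4:**
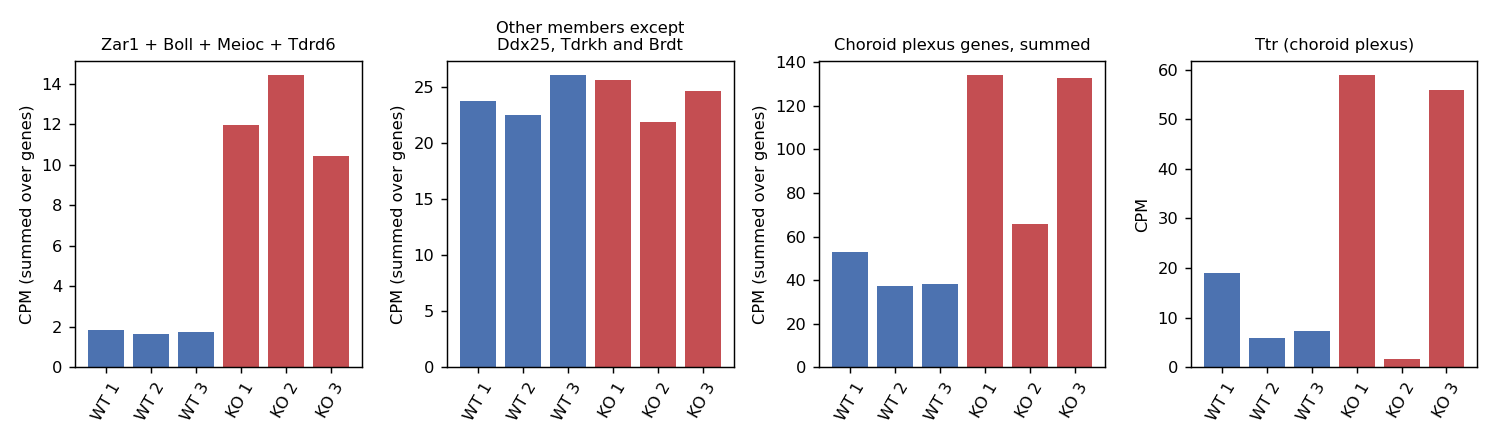
CPM in each library summed over the 4 members that rose (left), summed over the 45 other members without Ddx25, Tdrkh and Brdt (second panel), summed over the 12 choroid plexus genes (next panel) and of the choroid plexus transcript Ttr (right), with WT in blue and KO in red. The 4 genes reach 10.4 to 14.4 CPM in every KO library against 1.62 to 1.83 CPM in WT, the other members overlap at 21.9 to 26.1 CPM, the choroid plexus sum is higher in every KO library (65.6 to 134 CPM) than in WT (37.5 to 52.9 CPM), and Ttr is highest in KO 1 and KO 3 and lowest in KO 2.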

How the data were processed

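The deposited table holds raw read counts per Ensembl gene, 1 column per library. Per the submitters' processing notes, the authors trimmed reads with cutadapt 1.18, aligned them with HISAT2 to GRCm38 (mm10) and counted with HTSeq 0.11.1. Which annotation release and strand setting they used is not given in the sources used here. Symbols, coordinates and exon lengths came from GENCODE M21, and 446 identifiers (0.0759% of counts) had no symbol there.

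Counts were filtered with filterByExpr (minimum count 10, minimum total 15), scaled with TMM and tested with edgeR's quasi-likelihood test, group as the only term, Benjamini-Hochberg adjustment over all 16861 genes and a threshold of 0.05. The test was checked on simulated data. The fit was repeated with DESeq2, with limma-voom, with RLE or no scaling factors, without a filter or with 1 CPM in 3 libraries, with a replicate block and on leaving out each library. The second KO library alone against WT was added after the data were seen. Members and lists were chosen with earlier results of these data known. Members past the threshold, meeting the count rule or with at least 100 counts were named with each library's value, other members by sums, and from each other list up to 6 called genes or, with none called, the 2 smallest p-values. Further genes were named after their values were seen. Software was R 4.3.3, edgeR 4.0.16, limma 3.58.1 and DESeq2 1.42.0.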

Additional observations from a re-analysis of the deposited data

How the results depend on the processing

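Zar1, Boll, Tdrd6 and Meioc rose under each of the 13 other settings named under processing. Under these settings 0 members fell and 0 of the 15 somatic counterparts passed. The number of other germ cell genes that rose was 3 with DESeq2 and 2 to 4 on leaving out 1 library, and 0 to 1 fell on leaving out 1 library. Of the repressors, 2 to 3 rose and 1 to 2 fell on leaving out 1 library. The count rule gave 2 to 6 members and 0.647 to 1.34% of all identifiers on leaving out 1 library, 0.330% with at least 20 KO counts and 0.299% with under 4 WT counts. Log2 fold changes that crossed 0 belonged to members that did not pass. On leaving out 1 library they ranged from -0.016 to 0.12 for Dazl, -0.057 to 0.054 for Tdrkh, -0.20 to 0.18 for Dmc1 and -0.15 to 0.41 for Rnf17. With the second KO library alone they were -0.085, -0.037, -0.41 and -0.045 in the same order, and Dmc1 was at -0.014 with limma-voom. The cause of these shifts was not tested.

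Replicate numbers did not pair the libraries: deviations of same-numbered libraries correlated at 0.00465, -0.00921 and -0.0240. With a replicate block 4 members rose and 0 fell, as without it. Depth limits what can be said of the 37 members with fewer than 100 counts.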
